A study of Mus musculus with 8 samples.

Results

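The genes described are Gm6537, Cgnl1, Has3, Fn1, Lypd3, Pou3f3 and Olig2, 7 of the 23433 gene symbols counted in mouse skin cells at postnatal day 0.5. They were chosen from these same counts for large differences between hair germ and interfollicular epidermis within pups, Lypd3 as lower in hair germ and the other 6 as higher. The values that chose them were the counts of all 4 pups, so their hair germ against epidermis differences are given as a description with no test. All 7 symbols were found and all 7 passed the filter on low counts, which left 14176 genes, but Pou3f3 and Olig2 passed it through transgenic hair germ, the only group in which both libraries exceeded 1 CPM.

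RNA-seq libraries were made from 2 sorted populations of each of 4 newborn pups on a mixed strain background, from total RNA with a strand-marking kit made for small samples. Both transgenes were present in pups 4 and 6, the transgenic group: pTRE2-200bcl, which expresses miR-200 from a doxycycline-responsive promoter, and K14rtTA, the doxycycline-dependent activator driven by the keratin 14 promoter. Control pup 3 carried K14rtTA alone and control pup 5 carried pTRE2-200bcl alone, so the 2 controls differed in genotype from each other and each group held 2 libraries. The mothers of all pups ate doxycycline chow during pregnancy, and all sorted cells were positive for a red reporter of keratin 14 and high for α6 integrin, with P-cadherin high in hair germ and low in epidermis. The question of the series is how this microRNA family acts in skin epithelium at the time of follicle formation.

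A hair germ is an epithelial bud that grows down from the newborn epidermis after signals pass between epidermis and dermis, and gives rise to the follicle. Sonic hedgehog, Edar and Wnt signalling mark it, while the epidermis between buds forms the stratified barrier. MicroRNAs of the miR-200 family are known in epithelia for keeping cells adherent, in part by lowering the repressors Zeb1 and Zeb2, and they pair with messenger RNAs through a short stretch at their 5′ end called the seed.

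Assigned counts ran between 7109871 and 14039583 per library, and the 45S ribosomal precursor Rn45s took between 3.56% and 30.6% of them, with the epidermis libraries of transgenic pup 4 and control pup 3 at 29.0% or more. Levels are given as CPM, read counts relative to library size after scaling by the trimmed mean of M values (TMM). The transcript of the transgene, counted as miR200primary, averaged 662 ± 192 CPM in transgenic hair germ and 0.786 ± 0.862 CPM in control hair germ (SD, n = 2 each), and 660 ± 75.8 CPM in transgenic epidermis and 3.23 ± 0.848 CPM in control epidermis (SD, n = 2 each). Of 20 hair germ and placode markers, 8 were higher and 0 lower in hair germ than in epidermis, Lhx2, Gli1, Ptch1, Edar, Shh, Krt17, Foxi3 and Sostdc1, among 3.39% of all genes that passed in either direction. Cdh3, the P-cadherin gene used in the sort, averaged 447 ± 93.7 CPM in hair germ and 317 ± 47.1 CPM in epidermis (SD, n = 4 each), a log2 difference of 0.49 (SE 0.16) that missed the threshold in edgeR's quasi-likelihood test (adjusted p = 0.126). The hair germ libraries of control pups 3 and 5 were less alike, with r = 0.872 across genes, than either was to the 2 control epidermis libraries, at 0.882 to 0.932. Pup 4 alone had Y-linked counts beyond the trace level, so transgenic values rest on 1 male and 1 female.

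The mature members of the family are shown because their seeds, in capitals, set which sites were looked for in the 7 genes. They fall into 2 groups, miR-200b, miR-200c and miR-429 with the seed AAUACUG, and miR-200a and miR-141 with AACACUG.
mmu-miR-200b-3p: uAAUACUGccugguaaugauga
mmu-miR-200c-3p: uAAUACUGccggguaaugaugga
mmu-miR-429-3p: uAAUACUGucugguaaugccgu
mmu-miR-200a-3p: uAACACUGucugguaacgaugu
mmu-miR-141-3p: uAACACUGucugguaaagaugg
These sequences are from RefSeq (GRCm38.p6).

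The matching 7-letter sites, CAGTATT and CAGTGTT on the sense strand, were counted in the longest annotated 3′ UTR of each gene (GENCODE M21, GRCm38). Fn1 had 1 of each in 692 bases, and Pou3f3 had 1 CAGTATT and 3 CAGTGTT in 4537 bases. Gm6537, Cgnl1, Has3, Lypd3 and Olig2 had none in UTRs of 224, 2751, 4074, 517 and 1306 bases. Among 12671 genes tested here that have an annotated 3′ UTR, 30.4% held either site. Each line gives a site in capitals with 10 bases on either side, the first 2 from Fn1 and the last 2 from Pou3f3.
Fn1 CAGTATT at base 532: caatttttccCAGTATTtttatacgga
Fn1 CAGTGTT at base 243: cagtactgctCAGTGTTgtttaagaga
Pou3f3 CAGTATT at base 2417: gttgatgcatCAGTATTtacaagctgg
Pou3f3 CAGTGTT at base 693: tgctcttggaCAGTGTTtttcttggcc
A match by letters is a description and does not show that a microRNA acts on the transcript.

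Promoters, windows of 300 bases that span the annotated start, were in the RefSeq table (GRCm38.p6) for 5 of the 7 genes, not for Has3 or Fn1. Those of Gm6537, Pou3f3 and Olig2 are shown because these 3 genes were at or near 0 in epidermis. Capitals mark TATAA on the given strand, a motif chosen after the sequences were seen.
Gm6537 promoter (chr7:28755924-28756223, plus strand): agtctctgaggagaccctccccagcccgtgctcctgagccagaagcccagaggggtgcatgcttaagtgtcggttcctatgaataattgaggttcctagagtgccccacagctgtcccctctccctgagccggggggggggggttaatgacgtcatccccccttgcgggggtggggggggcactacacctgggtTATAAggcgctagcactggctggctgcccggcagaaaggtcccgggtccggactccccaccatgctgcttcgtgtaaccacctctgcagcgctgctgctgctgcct
Pou3f3 promoter (chr1:42695518-42695817, plus strand): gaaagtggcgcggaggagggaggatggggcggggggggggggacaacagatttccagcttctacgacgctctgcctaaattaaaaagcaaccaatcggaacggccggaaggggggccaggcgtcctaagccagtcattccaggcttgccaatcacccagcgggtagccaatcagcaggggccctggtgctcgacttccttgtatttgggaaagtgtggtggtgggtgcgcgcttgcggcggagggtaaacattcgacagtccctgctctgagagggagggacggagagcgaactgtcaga
Olig2 promoter (chr16:91225300-91225599, plus strand): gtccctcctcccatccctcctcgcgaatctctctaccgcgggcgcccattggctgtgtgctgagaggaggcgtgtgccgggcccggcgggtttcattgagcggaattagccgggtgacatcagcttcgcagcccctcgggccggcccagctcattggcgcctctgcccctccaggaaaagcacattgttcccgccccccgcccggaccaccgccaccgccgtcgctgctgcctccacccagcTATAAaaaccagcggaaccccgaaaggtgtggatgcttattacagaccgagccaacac
TATAA began 56 bases before the start on which the window of Gm6537 is built, which is the GENCODE start and lies inside the longer RefSeq gene, and 8 bases before that of Olig2. It was not in the windows of Pou3f3, Cgnl1 or Lypd3 and was in 17.5% of 32851 promoters of this length. The LEF and TCF core CTTTGA was in none of the 5 on either strand and in 5257 of the 32851 promoters. CpG dinucleotides numbered 30 in Cgnl1, 25 in Olig2, 18 in Pou3f3, 12 in Lypd3 and 11 in Gm6537, against a median of 7 over all promoters.

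Within pups, hair germ exceeded epidermis in 4 of 4 pups for Gm6537, Cgnl1, Has3 and Fn1, and Lypd3 was lower in hair germ in 4 of 4 pups. Pou3f3 and Olig2 were higher in hair germ in pups 3, 4 and 6, and the counts of control pup 5 were near 0 in both populations. The spread between pups differed by gene, being small for Cgnl1 and large for Gm6537, Pou3f3 and Olig2.

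**Figure D1:**
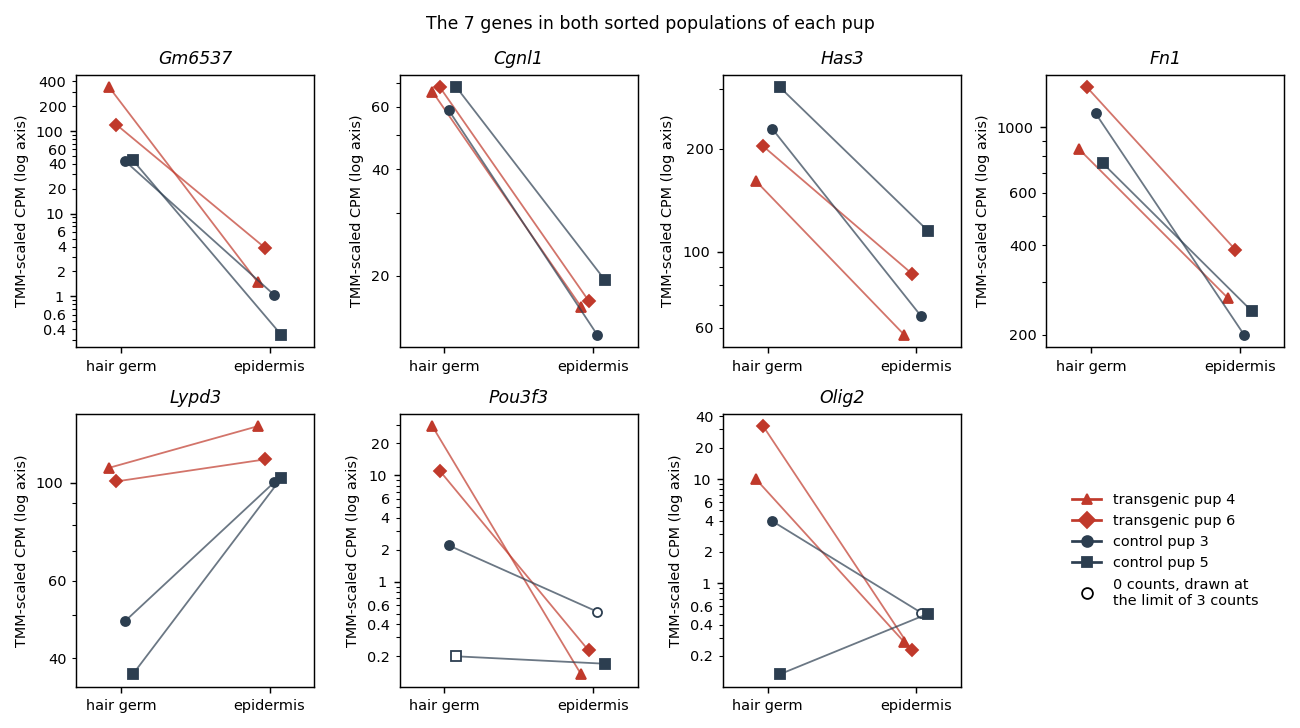
Each panel gives 1 gene as TMM-scaled CPM on a log axis, hair germ at the left and epidermis at the right, with a line joining the 2 libraries of a pup, transgenic pups in red and control pups in dark blue. Open symbols are counts of 0 drawn at the limit of 3 counts. Cgnl1 falls along nearly parallel lines in all 4 pups, while Pou3f3 and Olig2 in control pup 5 lie below 1 CPM in both populations.

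Has3 (chr8:106870242-106884566, plus strand, GENCODE M21 on GRCm38) encodes a hyaluronan synthase, an enzyme of the plasma membrane that extrudes the matrix sugar hyaluronan. It measured 161 and 204 CPM in transgenic hair germ (pups 4 and 6) and 229 and 304 CPM in control hair germ (pups 3 and 5). In epidermis it measured 57.1 and 86.3 CPM in transgenic pups and 65.0 and 115 CPM in control pups. Hair germ exceeded epidermis by 3.53-fold in pup 3, 2.83-fold in pup 4, 2.64-fold in pup 5 and 2.36-fold in pup 6, a mean log2 ratio of 1.49 ± 0.24 (SD, n = 4 pups). The lowest hair germ library lay above the highest epidermis library, 161 against 115 CPM.

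Of the other hyaluronan genes, 12 were tested between populations, and Vcan was higher and Stab1 lower in hair germ, where 1% of all genes were higher and 2.39% lower. Vcan, the hyaluronan-binding proteoglycan versican, averaged 194 ± 34.1 CPM in hair germ and 118 ± 25.2 CPM in epidermis (SD, n = 4 each), a log2 difference of 0.73 (SE 0.17, edgeR adjusted p = 0.0416). The Vcan call was lost in 11 of 17 alternatives, some of which leave libraries out, while its log2 difference stayed between 0.58 and 0.97. Vcan is also on the list of dermal fibroblast markers. With Vcan among them 6 of its genes were tested, and all 6 had a fitted difference above 0 (median 0.91). Col1a2, a fibrillar collagen chain of fibroblasts, passed as well, at 1.55 (SE 0.32, edgeR adjusted p = 0.0233). The fibroblast list summed to 235 to 353 CPM in transgenic hair germ, 374 to 506 CPM in control hair germ, 134 to 174 CPM in transgenic epidermis and 205 to 402 CPM in control epidermis. These sums include Vcan itself, at 159 and 225 CPM in transgenic hair germ and 221 and 171 CPM in control hair germ. In epidermis Vcan measured 90.4 and 110 CPM in transgenic pups and 123 and 150 CPM in control pups. Of the 16 listed genes 11 had a count in transgenic and 7 in control hair germ, and 13 in transgenic and 9 in control epidermis. The part of fibroblasts in the level of Vcan was not tested. Stab1, a scavenger receptor of macrophages and sinusoidal endothelium, averaged 13.5 ± 11.8 CPM in hair germ and 128 ± 143 CPM in epidermis (SD, n = 4 each), a log2 difference of -2.37 (SE 0.35, edgeR adjusted p = 0.00561). Its epidermis libraries split by genotype, at 311 and 172 CPM in transgenic pups and 18.8 and 9.51 CPM in control pups, and it passed in transgenic pups alone (-3.48, edgeR adjusted p = 0.00232) and not in control pups alone. Leukocyte markers moved with it, with the counts given beside the fibronectin genes. The median over the 12 was -0.13, against -0.04 over all 14176 genes. Has2, the paralog of Has3, measured 2.02 and 3.88 CPM in transgenic hair germ, 4.13 and 7.97 CPM in control hair germ, 2.56 and 2.65 CPM in transgenic epidermis and 1.22 and 6.11 CPM in control epidermis, so its populations overlapped.

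Fn1 (chr1:71585520-71653200, minus strand) encodes fibronectin, a matrix glycoprotein that integrins assemble into fibrils. It measured 841 and 1364 CPM in transgenic hair germ (pups 4 and 6) and 1112 and 754 CPM in control hair germ (pups 3 and 5). In epidermis it measured 265 and 386 CPM in transgenic pups and 199 and 240 CPM in control pups. The ratio of hair germ to epidermis was 5.58 in pup 3, 3.17 in pup 4, 3.14 in pup 5 and 3.53 in pup 6, and its mean log2 was 1.90 ± 0.39 (SD, n = 4 pups). All 4 hair germ libraries exceeded all 4 epidermis libraries. The fibroblast markers described above were also higher in fitted value in hair germ, and their part in the level of Fn1 was not tested.

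Genes that bind or assemble fibronectin were read beside Fn1. Of 19 tested, 0 were higher and 4 were lower in hair germ, with a list median of -0.51 on the log2 scale. The 4 calls were present in transgenic pups alone, where 4.62% of all genes passed (0.875% higher and 3.75% lower), and 0 of the 19 passed in control pups alone, where 0.00705% of all genes did. Plau, the urokinase that activates plasminogen, averaged 100.3 ± 37.5 CPM in hair germ and 316 ± 224 CPM in epidermis (SD, n = 4 each), a log2 difference of -1.41 (SE 0.17, edgeR adjusted p = 0.00198). Itgav, the αv integrin subunit, averaged 133 ± 18.4 CPM in hair germ and 289 ± 101 CPM in epidermis (SD, n = 4 each), a log2 difference of -1.06 (SE 0.15, edgeR adjusted p = 0.00543). Itga9 differed by -2.41 (SE 0.43, edgeR adjusted p = 0.0120) and Itga4, chosen after its value was seen, by -1.22 (SE 0.26, edgeR adjusted p = 0.0298). Leukocyte markers moved the same way, 9 of 14 tested being lower in hair germ, with a median of -3.33 in transgenic pups alone and -0.52 in control pups alone, and their summed level was 229 to 378 CPM in transgenic hair germ, 66.5 to 140 CPM in control hair germ, 2490 to 3339 CPM in transgenic epidermis and 98.5 to 214 CPM in control epidermis. Their part in these differences was not tested.

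Cgnl1 (chr9:71626509-71771602, minus strand) encodes cingulin-like 1, or paracingulin, a protein of the cytoplasmic plaque of tight and adherens junctions. It measured 66.3 and 68.2 CPM in transgenic hair germ and 58.7 and 68.3 CPM in control hair germ, and 16.3 and 17.0 CPM in transgenic epidermis and 13.6 and 19.4 CPM in control epidermis. The ratio was 4.32 in pup 3, 4.06 in pup 4, 3.51 in pup 5 and 4.01 in pup 6, and the mean log2 ratio of 1.99 ± 0.13 (SD, n = 4 pups) had the smallest spread of the 7 genes. Plekha7, an adherens junction protein that recruits paracingulin, was the only one of 18 other plaque and junction genes tested to pass, at 132 ± 13.97 CPM in hair germ and 84.2 ± 18.3 CPM in epidermis (SD, n = 4 each), a log2 difference of 0.67 (SE 0.15, edgeR adjusted p = 0.0319). The Plekha7 call was lost in 9 of 17 alternatives, some of which leave libraries out, while its log2 difference stayed between 0.58 and 0.92. Cingulin itself, Cgn, overlapped between populations, with 9.42 and 11.4 CPM in transgenic hair germ, 0.264 and 11.2 CPM in control hair germ, 8.09 and 6.57 CPM in transgenic epidermis and 8.53 and 11.8 CPM in control epidermis. Over the 6 pathway lists 7 of 73 tested genes other than the 7 members passed between populations, beside 3.39% of all genes, and 15 did with the pup as a block, where 225 of all genes were higher and 604 lower. The number fell without both libraries of pup 4 and without the 2 Rn45s-rich libraries, fits that leave 1 library in some groups. It rose without the hair germ library of control pup 5 and fell without that of transgenic pup 6. It also fell without the epidermis library of transgenic pup 4, transgenic pup 6 or control pup 5. In each of these fits the number called over all genes moved the same way, and whether the lists moved further than all genes was not tested.

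Lypd3 (chr7:24636550-24641118, plus strand) encodes C4.4A, a GPI-anchored surface protein of the Ly6 and uPAR family found on stratified epithelium. It measured 108 and 101 CPM in transgenic hair germ and 48.6 and 36.7 CPM in control hair germ, against 134 and 113 CPM in transgenic epidermis and 100.1 and 103 CPM in control epidermis. The ratio of hair germ to epidermis was 0.805 in pup 4 and 0.891 in pup 6, the transgenic pups, and 0.485 in pup 3 and 0.358 in pup 5, the controls. Control hair germ stood apart from the other 6 libraries, and transgenic hair germ overlapped with control epidermis. None of 11 other Ly6 and uPAR genes tested passed between populations, with a list median of -0.49, and none of 19 suprabasal epidermis markers did, with a list median of -0.37.

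Pou3f3 (chr1:42695768-42703176, plus strand) encodes a POU domain transcription factor, Brn1, known from the brain and kidney. It had 329 and 91 counts in transgenic hair germ (29.0 and 11.03 CPM) and 25 and 0 counts in control hair germ (2.20 CPM in pup 3, and up to 0.199 CPM allowed by a count of 0 in pup 5). Epidermis had 1 and 3 counts in transgenic pups and 0 and 2 counts in control pups. Hair germ exceeded epidermis by 215-fold in pup 4 (95% exact interval 38.3 to 8506, counting error only) and by 48.6-fold in pup 6 (16.1 to 240), and in pup 3 by at least 4.204-fold, taking 3 counts as the floor for the epidermis library. In pup 5 both libraries lay at or under the floor and no ratio is given.

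Among the other POU genes 8 were tested, and 0 passed between populations by edgeR. Pou3f1, which encodes Oct6 of keratinocytes and Schwann cells, measured 279 and 189 CPM in transgenic hair germ, 299 and 153 CPM in control hair germ, 79.2 and 81.5 CPM in transgenic epidermis and 292 and 111 CPM in control epidermis. Pou3f2, the closest relative in the same class, measured 0.880 and 0.848 CPM in transgenic hair germ and 4.13 and 0.731 CPM in control hair germ, and Pou3f4 had no count in any of the 8 libraries.

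Olig2 (chr16:91225457-91228677, plus strand) encodes a basic helix-loop-helix factor of oligodendrocyte and motor neuron progenitors. It had 114 and 266 counts in transgenic hair germ (10.03 and 32.2 CPM) and 45 and 2 counts in control hair germ (3.95 and 0.133 CPM). Epidermis had 2 and 3 counts in transgenic pups and 0 and 6 in control pups. The ratio was 37.2 in pup 4 (95% exact interval 10.1 to 311, counting error only), 142 in pup 6 (48.1 to 694) and at least 7.57 in pup 3, whereas in pup 5 hair germ had the lower level, a ratio of 0.261 with an interval of 0.0258 to 1.46. The neighbouring family member Olig1 had no count in 7 of the 8 libraries and 0.085 CPM in the epidermis of control pup 5. Of 6 other Olig and neural helix-loop-helix genes tested, 0 passed between populations by edgeR.

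Markers of glia and Merkel cells, both present in skin, were read beside Pou3f3 and Olig2. Sox10, which defines glia and melanocytes, had no count in any control library and measured 2.91 and 6.54 CPM in transgenic hair germ and 2.16 and 3.25 CPM in transgenic epidermis. The 14 glia markers summed to 304 to 360 CPM in transgenic hair germ, 238 to 308 CPM in control hair germ, 286 to 302 CPM in transgenic epidermis and 273 to 280 CPM in control epidermis. Of the 14, 11 had a count in transgenic hair germ, 6 in control hair germ, 13 in transgenic epidermis and 8 in control epidermis. S100b, Foxd3, Pdgfra and Nkx2-2, like Sox10, had counts in transgenic but not in control hair germ. Between genotypes in hair germ 4 of 6 tested glia markers had a fitted value above 0 (median 0.84) and 0 passed by edgeR. Merkel cell markers summed to 60.6 to 80.9 CPM in transgenic hair germ, 23.1 to 38.8 CPM in control hair germ, 27.8 to 39.8 CPM in transgenic epidermis and 8.91 to 12.2 CPM in control epidermis. Of 9 Merkel markers 8 were tested, and all 8 had a fitted difference above 0 between hair germ and epidermis. Of these 1 passed, Rab3c, at 3.05 (SE 0.73, edgeR adjusted p = 0.0347). Between genotypes in hair germ 7 of the 8 were above 0 (median 2.01) and 0 passed by edgeR. Atoh1, the factor that specifies Merkel cells, measured 2.82 and 1.70 CPM in transgenic hair germ and 4.04 and 0.532 CPM in control hair germ, and had no count in any epidermis library. Sox2 measured 4.84 and 4.36 CPM in transgenic hair germ, and 0.351 CPM in control pup 3 with no count in control pup 5. Krt18 measured 22.3 and 11.9 CPM in transgenic and 0.615 and 3.59 CPM in control hair germ, but also 13.5 and 23.7 CPM in transgenic epidermis. Piezo2 was lower in transgenic than in control hair germ, at 11.2 and 6.18 against 18.45 and 15.8 CPM. Melanocyte markers summed to 154 to 194 CPM in transgenic hair germ, 32.8 CPM in both control hair germ libraries, 144 to 166 CPM in transgenic epidermis and 21.3 to 24.4 CPM in control epidermis. Endothelial markers summed to 39.6 to 60.5 CPM in transgenic hair germ, 3.19 to 8.43 CPM in control hair germ, 14.7 to 20.1 CPM in transgenic epidermis and 2.80 to 7.31 CPM in control epidermis. Most of the transgenic hair germ sum was 1 gene, Flt1, at 44.4 ± 16.6 CPM (SD, n = 2). Of the 8 endothelial markers 5 had a count there, and Cdh5, Emcn and Cldn5 had none. The part of any of these cell types in the levels of Pou3f3 and Olig2 was not tested, and in these bulk samples fewer cells of a type and less RNA per cell cannot be told apart.

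**Figure D2:**
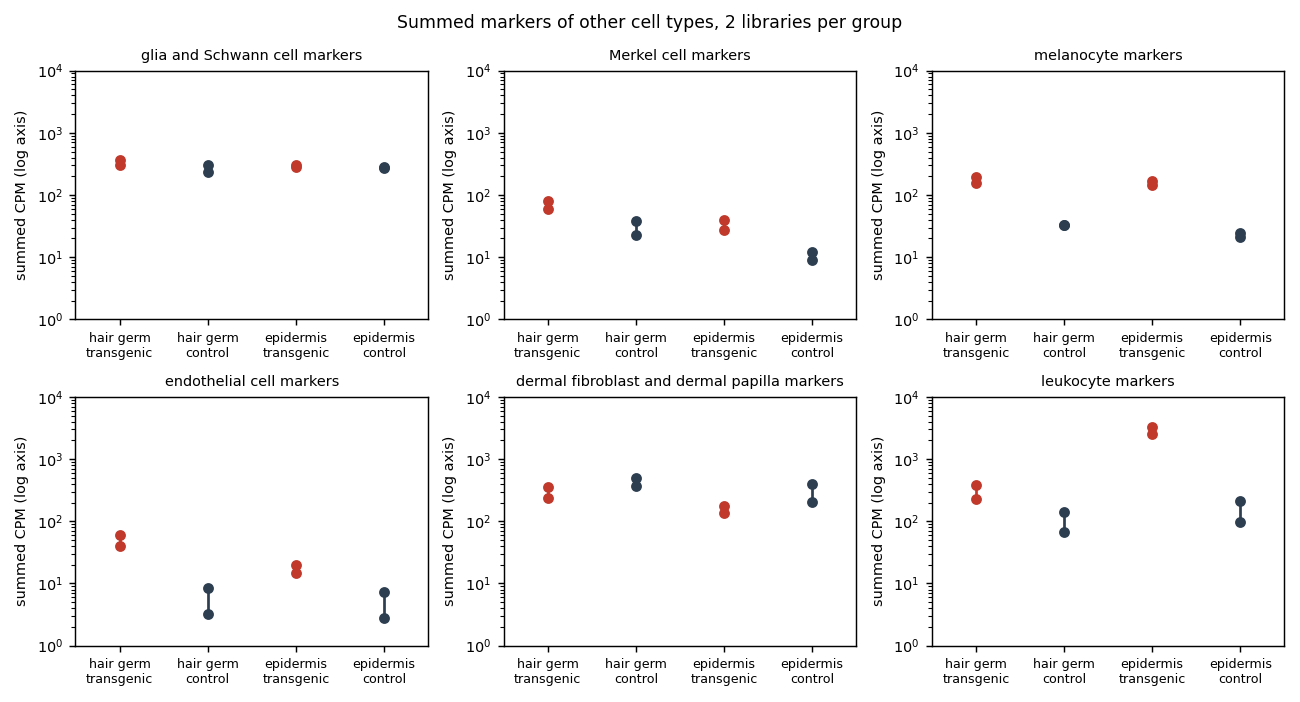
Each panel gives the summed CPM (log axis) of 1 list of markers in the 2 libraries of each group, transgenic in red and control in dark blue. The leukocyte sum is highest in transgenic epidermis at 2490 to 3339 CPM, and the Merkel cell sum is highest in transgenic hair germ at 60.6 to 80.9 CPM.

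Gm6537 (chr7:28756174-28758968, plus strand, GENCODE M21 on GRCm38) is annotated as protein-coding and is listed in RefSeq as Ccer2. It lies between Sars2 and Nfkbib, and its 3′ end shares 314 exon bases with Nfkbib on the opposite strand. Counts were 3882 and 986 in transgenic hair germ (342 and 119 CPM) and 490 and 670 in control hair germ (43.05 and 44.5 CPM). In epidermis there were 11 and 51 counts in transgenic pups (1.48 and 3.85 CPM) and 6 and 4 counts in control pups (1.04 and 0.340 CPM). The ratio of hair germ to epidermis was 41.2 in pup 3, 230.3 in pup 4, 131 in pup 5 and 31.0 in pup 6, and the mean log2 ratio was 6.30 ± 1.37 (SD, n = 4 pups). Nfkbib, an inhibitor of NF-κB, measured 26.0 and 18.7 CPM in transgenic hair germ, 19.2 and 9.83 CPM in control hair germ, 22.4 and 18.7 CPM in transgenic epidermis and 15.0 and 20.8 CPM in control epidermis, so it did not share the pattern. The kit marks strand, but whether counting used strand is not stated, so the split of reads between the overlapping ends is uncertain. Overlaps on the opposite strand also touch Has3 (Chtf8, 352 exon bases), Fn1 (Apol7d, 292) and Lypd3 (Gm26550, 225).

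Transgenic and control pups were then compared within each population, a contrast between animals. The genes were chosen partly for their hair germ counts in these same libraries, low for Lypd3 and high for the other 6. The hair germ comparison is thus not wholly independent of the choice. For Lypd3 the fitted hair germ against epidermis difference was -1.25 in control and -0.24 in transgenic pups on the log2 scale. The low control hair germ libraries that entered its choice are also the reference in this comparison. In hair germ Gm6537 and Lypd3 rose in transgenic pups and none of the 7 fell. These 2 of 7 stand beside 0.952% of all tested genes called in either direction (0.762% higher and 0.19% lower). In epidermis 0 of the 7 passed edgeR's threshold, beside 6.34% of all tested genes (4.99% higher and 1.35% lower), and 1 of them, Gm6537, had an unadjusted p under 0.05, while the DESeq2 Wald test called that gene alone.

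Gm6537 averaged 231 ± 157 CPM in transgenic hair germ and 43.8 ± 1.04 CPM in control hair germ (SD, n = 2 each), a log2 fold change of 2.40 (SE 0.42, edgeR adjusted p = 0.0225). Both transgenic libraries lay above both controls, and the transgenic libraries differed more from each other than the controls did. Without the hair germ library of pup 4 the log2 fold change was 1.41 (edgeR adjusted p = 0.184) and without both libraries of pup 4 it was 1.43 (0.398). The call was also lost without the hair germ library of control pup 3 (edgeR adjusted p = 0.0791) or control pup 5 (0.0587), with log2 fold changes of 2.33 and 2.42, and without the 2 epidermis libraries rich in Rn45s (0.0582). In epidermis the log2 fold change was 2.29 (SE 0.93, edgeR adjusted p = 0.208) on 62 counts in transgenic and 10 counts in control pups. Nfkbib, which overlaps it, differed by 0.64 in hair germ (SE 0.43, edgeR adjusted p = 0.474).

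Lypd3 averaged 104 ± 5.22 CPM in transgenic hair germ and 42.7 ± 8.37 CPM in control hair germ (SD, n = 2 each), a log2 fold change of 1.29 (SE 0.23, edgeR adjusted p = 0.0281). The groups did not overlap, and the fitted value was above 0 under all 17 alternatives. In epidermis it averaged 124 ± 15.1 CPM in transgenic pups and 101 ± 1.71 CPM in control pups (SD, n = 2 each), a log2 fold change of 0.29 (SE 0.23, edgeR adjusted p = 0.636). Whether the effect differed between populations was not tested, because that difference is made of the within-pup ratios that chose the genes. The hair germ call was lost without the hair germ library of pup 4 (edgeR adjusted p = 0.131), pup 6 (0.128) or control pup 5 (0.0568), without the epidermis library of pup 4 (0.0715) or pup 6 (0.0772), without both libraries of pup 4 (0.414), and without the 2 libraries rich in Rn45s (0.151), while the log2 fold change stayed between 1.10 and 1.46. Abca12, a lipid transporter of the barrier, was the only one of 19 suprabasal markers that rose in transgenic hair germ, by 1.75 on the log2 scale (SE 0.31, edgeR adjusted p = 0.0281), at 108 ± 8.42 CPM against 32.2 ± 0.276 CPM in control hair germ (SD, n = 2 each). Of the 19, 12 had a fitted value above 0 (median 0.43, against 0.04 over all genes), and their part in the rise of Lypd3 was not tested.

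**Figure D3:**
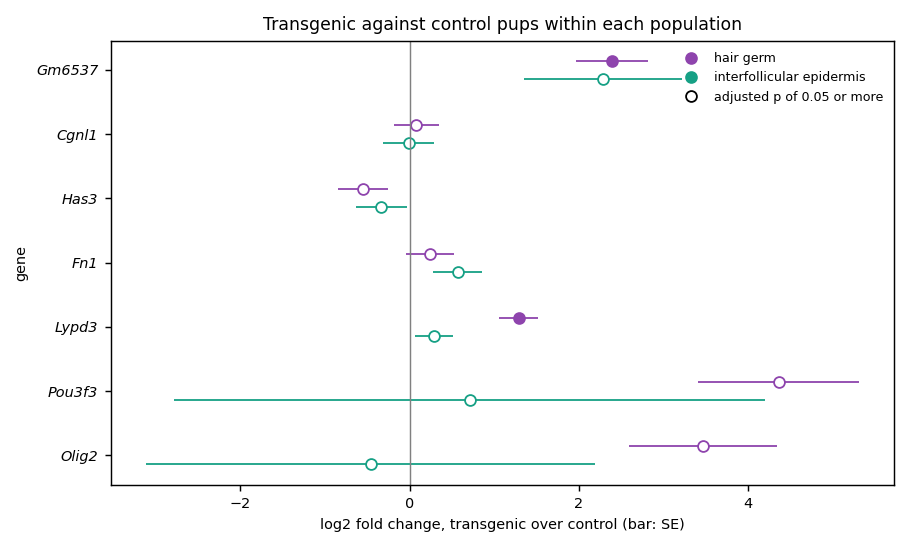
Points give the fitted log2 fold change of transgenic over control pups for each gene, in hair germ (purple) and in epidermis (green), with bars of 1 SE, and filled points have an adjusted p under 0.05. Gm6537 at 2.40 and Lypd3 at 1.29 in hair germ are the 2 filled points, and the epidermis bars of Pou3f3 and Olig2 are the widest, where their counts are 6 or fewer in each group.

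Pou3f3 and Olig2 had more counts in both transgenic hair germ libraries than in either control library, and neither passed. Pou3f3 had 420 counts in transgenic and 25 in control hair germ, a ratio of scaled sums of 22.6 (95% exact interval 15.1 to 35.4, counting error only), and the fitted log2 fold change was 4.36 (SE 0.95, edgeR adjusted p = 0.0514). Olig2 had 380 counts in transgenic and 47 in control hair germ, a ratio of 10.9 (8.03 to 15.1), and the fitted value was 3.47 (SE 0.87, edgeR adjusted p = 0.0728). All control counts of Pou3f3, and 45 of the 47 of Olig2, came from pup 3. Without that library both passed, at an edgeR adjusted p of 0.0147 for Pou3f3 and 0.0215 for Olig2, against a single control library with 0 and 2 counts. Both genes entered the test through transgenic hair germ, the group where they are high, so a difference was favoured by the filter and these values support nothing further. In epidermis Pou3f3 had 4 counts in transgenic and 2 in control pups, and Olig2 had 5 in transgenic and 6 in control pups, so no difference was detectable at this depth.

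**Figure D4:**
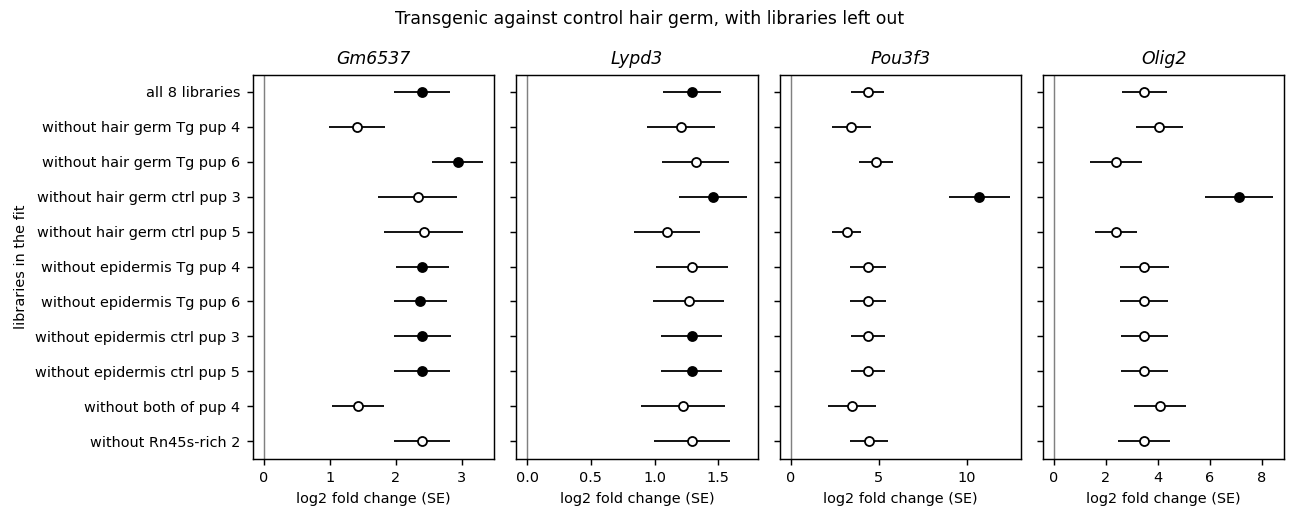
Each panel gives the log2 fold change (bar, 1 SE) of transgenic over control hair germ for 1 gene, with all 8 libraries at the top and fits with libraries left out beneath, filled where the adjusted p is under 0.05. Lypd3 stays between 1.10 and 1.46, Gm6537 drops to 1.41 without the hair germ library of pup 4, and Pou3f3 and Olig2 fill only when the hair germ library of control pup 3 is left out, where their fitted size rests on 0 and 2 control counts.

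Has3, Fn1 and Cgnl1 did not pass between genotypes in either population. Has3 in hair germ had a log2 fold change of -0.55 (SE 0.29, edgeR adjusted p = 0.373), with both transgenic libraries under both controls, and in epidermis -0.33 (SE 0.30, 0.700). Fn1 had 0.24 in hair germ (SE 0.28, edgeR adjusted p = 0.712) and 0.57 in epidermis (SE 0.29, 0.356), where both transgenic libraries lay above both controls. Cgnl1 had 0.08 in hair germ (SE 0.27, edgeR adjusted p = 0.917) and -0.01 in epidermis (SE 0.30, 0.999), the smallest values of the 7. With the 2 populations averaged, Gm6537 rose by 2.35 (SE 0.49, edgeR adjusted p = 0.00964) and Lypd3 by 0.79 (SE 0.16, 0.0106), and the other 5 did not pass in this fit, which treats the libraries of a pup as separate, beside 9.01% of all tested genes (6.17% higher and 2.84% lower). With counts summed per pup 3 of the 7 passed, where 769 of 14178 genes were higher and 159 lower. They were Gm6537 at 2.21 (edgeR adjusted p = 0.0364), Lypd3 at 0.75 (0.0466) and Pou3f3 at 4.04 (0.0465), while Fn1 was 0.01 and Olig2 2.84 (0.0770). Pou3f3 and Olig2 were highest in transgenic hair germ, the group through which both passed the main filter, so their values here support nothing further. Without both libraries of pup 4 neither Gm6537 nor Lypd3 passed (edgeR adjusted p = 0.0717 for Gm6537 and 0.263 for Lypd3), nor did they without the 2 libraries rich in Rn45s (0.258 and 0.196). The averaged call of Gm6537 was also lost without the epidermis library of control pup 5 (1.94, edgeR adjusted p = 0.176) or of transgenic pup 6 (1.87, 0.368), and that of Lypd3 without the epidermis library of transgenic pup 4 (0.73, 0.0884).

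The other genes of the 6 pathway lists were read between genotypes in the same fit. In hair germ 1 of 73 passed, beside 0.952% of all genes. It was Ltbp1, which tethers latent TGF-β to the matrix, at 302 ± 24.3 CPM in transgenic and 33.4 ± 8.64 CPM in control hair germ (SD, n = 2 each), a log2 fold change of 3.17 (SE 0.54, edgeR adjusted p = 0.0240). This call was lost without pup 4, and without the hair germ library of control pup 3, transgenic pup 4 or transgenic pup 6. Calls over all genes fell in these fits as well, except without control pup 3, where they rose. Without the hair germ library of control pup 5 more of the 73 passed, and more of all genes did. In epidermis 10 of 73 passed, beside 6.34% of all genes, and whether the populations differ in this was not tested. Of 19 fibronectin genes 5 rose in transgenic epidermis and 0 fell, among them Plau at 504 ± 89.2 CPM in transgenic and 128 ± 30.0 CPM in control epidermis (SD, n = 2 each), a log2 fold change of 1.97 (SE 0.24, edgeR adjusted p = 0.000510). Itga4 rose by 2.68 (SE 0.37, edgeR adjusted p = 0.00123), Itga9 by 2.86 (SE 0.54, 0.00810) and, of 12 hyaluronan genes, Stab1 by 4.14 (SE 0.50, 0.000520).

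Leukocyte markers again moved with these genes, 13 of 14 tested rising in transgenic epidermis and 3 of 14 in transgenic hair germ, with the sums given above, and their part was not tested. Ly6e, a surface protein induced by interferon, rose by 2.11 (SE 0.46, edgeR adjusted p = 0.0185) as the only one of 11 Ly6 and uPAR genes. Among 8 POU genes 2 fell in transgenic epidermis, Pou6f1 by -1.62 (SE 0.28, edgeR adjusted p = 0.00416) and Pou2f3, the Skn-1a factor of keratinocytes, by -0.99 (SE 0.23, 0.0246). Id2, an inhibitor of helix-loop-helix factors, rose by 2.18 (SE 0.38, edgeR adjusted p = 0.00474), and 0 of 18 junction genes passed in either population. The 10 calls in epidermis became 3 without both libraries of pup 4 and 2 without the 2 libraries rich in Rn45s, and 6, 5 and 6 without the epidermis library of transgenic pup 4, transgenic pup 6 and control pup 5.

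Likeness was measured as Pearson's r of log2 CPM over the 8 libraries among 10109 genes, where the libraries of a pup share an animal and the populations share a sort. Pou3f3 and Olig2 were the most alike pair among the 7, with r = 0.946, and Cgnl1 and Fn1 had r = 0.941. These 4 genes were chosen for higher hair germ counts in these same libraries, so a high r between them was favoured by the choice. Pou3f3 and Olig2 had at most 6 counts in each epidermis library and in the hair germ library of control pup 5. Their r therefore rests on the other hair germ libraries. Lypd3 had r between -0.78 and 0.14 with the other 6. The 3 genes most like Gm6537 were Creb3l4 (0.969), Trib2 (0.961) and Fgfr1 (0.960), and the least like was Rmi1 (-0.989). Srgap1 (0.972), Col27a1 (0.971) and Zfp61 (0.968) were most like Cgnl1, and Galnt1 (-0.985) least. For Has3 they were Soga2 (0.977), Tex9 (0.975) and Chst11 (0.973), with Bag1 (-0.974) at the other end.

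Agbl5 (0.990), Tgfb3 (0.977) and Mycn (0.973) were most like Fn1, and Acpp (-0.971) least. Cog8 (0.986), Fam69a (0.967) and Capzb (0.965) were most like Lypd3, and Zfp740 (-0.950) least. Fn3krp, a kinase for glycated proteins, was among the 3 most like both Pou3f3 (0.974) and Olig2 (0.975), at 62.4 and 71.9 CPM in transgenic hair germ, 16.5 and 5.05 CPM in control hair germ, 7.69 and 7.56 CPM in transgenic epidermis and 3.14 and 7.39 CPM in control epidermis. In hair germ it ordered the libraries as Olig2 did, pup 6 highest and pup 5 lowest, while Pou3f3 was highest in pup 4. Snord22 (0.969) and Sh3rf1 (0.966) completed the list for Pou3f3 and Ruvbl2 (0.977) and Ankrd52 (0.960) that for Olig2, and Xrn1, a 5′ exonuclease that degrades RNA, was least like both (-0.986 for Pou3f3 and -0.973 for Olig2).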

How the data were processed

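Total RNA libraries of 2 sorted populations from 4 pups gave 8 libraries in 4 groups of 2. Raw read counts per gene symbol are as the authors deposited them. TopHat, HTSeq and DESeq2 on mm10 (GRCm38) are named per the submitters' processing notes, which state neither versions nor annotation nor whether counting used strand. A second deposited table holds a normalised signal, the count over a library constant for 23406 names, and served only as a check of the counts. The 5 summary lines per library were left out of library sizes and tests, and assigned counts were 23.4% to 42.4% of the reads recorded.

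Counts were filtered with filterByExpr, scaled by TMM and fitted with edgeR 4.0.16 (R 4.3.3) on all 8 libraries with a mean for each of 4 groups, using glmQLFit (legacy set to FALSE) and two-sided glmQLFTest. P-values were adjusted by the Benjamini-Hochberg method over 14176 genes at a threshold of 0.05. The residual degrees of freedom were 4 and the common biological coefficient of variation was 0.4746. Pups are separate animals, and the 2 libraries with the same pup number came from the same pup per the labels, so populations are paired. Deviations of the paired libraries correlated at 0.0868 in transgenic and 0.117 in control pups, and the fit with the pup as a block was an alternative. Ratios divide counts by TMM-scaled library sizes, a count of 0 has a floor of 3 counts, and 95% intervals are exact and cover counting error only. The fit was tested on simulated data with 200 changed genes.

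The members and the 15 gene lists (236 entries, 233 found, 6 of the lists being pathway lists) were chosen with earlier results of these data known. Named genes were all 7 members, up to 3 genes with the smallest p per list and comparison, and for each member the 3 genes of highest and the 1 of lowest r among genes whose log2 CPM (prior count 2) averaged at least 2, leaving out predicted and clone names. Hair germ markers, Cdh3 and the relatives and cell type markers given by library were named beyond this rule, after their values were seen. Alternatives were DESeq2 1.42.0, limma-voom (limma 3.58.1), edgeR's older quasi-likelihood method, other scalings, no filter, and fits with libraries left out.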

Additional observations from a re-analysis of the deposited data

How the results depend on the processing

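In hair germ 2 of 7 members were called between genotypes in edgeR, where 108 of all genes were higher and 27 lower. The number became 4 with library size alone (279 and 37 of all genes) and 1 with edgeR's older quasi-likelihood method (43 and 11). It became 0 with limma-voom (11 and 6) and 1 with only the 4 hair germ libraries (17 and 5). With 1 library left out the log2 fold change ranged between 1.41 and 2.94 for Gm6537 and between 1.10 and 1.46 for Lypd3. Their calls were lost in several of these fits, as given above. In epidermis the count of 0 became 1 with the DESeq2 Wald test, where 771 of all genes were higher and 288 lower, against 707 and 192 in edgeR. Over both populations 2 members passed in edgeR, where 875 of all genes were higher and 402 lower. The count became 1 with limma-voom (736 and 383) and 3 with counts summed per pup (769 and 159). With 1 library left out the log2 fold change ranged between 1.86 and 2.76 for Gm6537 and between 0.70 and 0.89 for Lypd3. The fits in which these calls were lost are given above. With 1 library left out, the lone library of a group is assumed to vary like the other groups, and fewer samples enter. Values near 0 changed sign: Cgnl1 in epidermis was 0.0253 with DESeq2 size factors, 0.135 with library size alone, 0.0488 with no filter, 0.0378 with DESeq2, 0.00487 with the older method, 0.0779 without pup 4 and 0.0411 with only the epidermis libraries, and -0.156 to 0.304 with 1 library left out. With 1 library left out, Cgnl1 ranged between -0.0707 and 0.193 in hair germ and -0.0411 and 0.192 over both populations, Fn1 in hair germ between -0.169 and 0.515, Has3 in epidermis between -0.647 and 0.158 and Olig2 in epidermis between -0.976 and 4.40. Over both populations Cgnl1 was -0.0533 without the libraries rich in Rn45s and -0.15 with counts summed per pup, and Olig2 in epidermis was 0.22 with limma-voom. The hair germ call of Gm6537 was lost with limma-voom (adjusted p = 0.0716) and the older method (0.0855), and that of Lypd3 with limma-voom (0.0599) and with only the hair germ libraries (0.147). Pou3f3 and Olig2 passed in edgeR with library size alone (0.00407 and 0.0131), and Pou3f3 with no filter on low counts (0.0346). All control hair germ counts of Pou3f3, and 45 of the 47 of Olig2, came from pup 3. Both genes were chosen for high hair germ counts and passed the main filter through transgenic hair germ, so these passes support nothing further. The cause of the changes between settings was not tested. With the replicate block, which pairs the libraries of a pup, the hair germ against epidermis log2 differences were 6.06 for Gm6537, 1.97 for Cgnl1, 1.48 for Has3, 1.90 for Fn1, -0.74 for Lypd3, 5.83 for Pou3f3 and 5.41 for Olig2, and over all genes 225 were higher and 604 lower, against 142 and 339 without it. Scaling by library size alone moved the median of all genes between populations to 0.21, where Lypd3 stayed lower in hair germ at -0.48. The fit on only the 4 epidermis libraries gave no value for Pou3f3 or Olig2, which its filter removed. Epidermis counts of these 2 genes, at most 6 per library, limit what can be seen there.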
